A study of Homo sapiens with 4 samples.

Results

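The baseline transcriptomes of 2 mock control cultures were compared, one labelled OVCAR3 and one labelled SKOV3, both human ovarian cancer cell lines that were established from different patients. The mock cultures carry no knockout. Per the labels they were treated with hygromycin at 100 µg/mL for 2 days, starting about 18 h after a transfection, and the sources used here do not name the transfected construct. The study also holds 1 library from each line with a knockout (KO) of HERV-K119, an endogenous retroviral locus, in which the env gene was targeted with CRISPR-Cas9. The KO cultures received the same hygromycin treatment, and nothing says whether they are single clones. Each of the 4 groups has 1 RNA-seq library, so no difference below has a replicate check and no p-value is given. All libraries were made from 1.3 µg of total RNA with a kit that keeps the strand. A gene was measured when it had a level of at least 5 CPM (its count as a share of the library total, scaled to 1e6) in either mock library. This left 11044 of the 52402 gene symbols. Ratios are log2 of OVCAR3 mock over SKOV3 mock with a prior count of 2, brackets hold exact 95% intervals of the counts, and a gene was called higher or lower past 2-fold. The intervals cover counting error only.

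A cell line keeps much of the gene programme of the tissue it came from, set by lineage transcription factors such as PAX8 of the Mullerian tract and the HOX genes of position along the body axis. Which receptors a line carries and which factors it secretes follow from that programme and from the mutations and copy number changes of the tumour. Stress programmes are added on top: ATF4 is translated when amino acids run short or protein folding fails and switches on amino acid synthesis and transport, NRF2 drives antioxidant genes, and HSF1 drives chaperones.

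The mock libraries held 22057693 counts for SKOV3 and 16298490 for OVCAR3, and mitochondrially encoded rows took 5.16% and 5.93% of them. The OVCAR3 KO library stood apart, with 21.9% of its counts in mitochondrial rows against 5.93% in the SKOV3 KO library. Between the mock libraries, protein-coding genes with higher GC content had higher ratios. The Spearman correlation across 10116 genes was 0.28, and the median ratio went from -0.22 in the fifth of genes with the lowest GC content to 0.26 in the fifth with the highest. This is a property shared by many genes of 1 library pair, so list medians below are also given with the trend on GC content and length removed. Between the KO libraries the correlation with GC content had the other sign, at -0.36.

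Several genes that are known to mark these lines did not follow the labels. CDKN2A, the gene of the cell-cycle inhibitors p16 and p14ARF, is homozygously deleted in SKOV3. CDKN2A was detected under both labels, at 92.8 CPM (SKOV3 mock) and 50.9 CPM (OVCAR3 mock). The adjacent genes MTAP, at 233 and 237 CPM, and CDKN2B, at 11.3 and 10.3 CPM in the same order, were close to equal. ERBB2, the HER2 receptor gene that is amplified in SKOV3, had 59.9 CPM in SKOV3 mock and 73.9 CPM in OVCAR3 mock. CCNE1, the cyclin E1 gene that is amplified in OVCAR3, had 19.9 CPM in SKOV3 mock and 25.5 CPM in OVCAR3 mock, a ratio of 0.35 (0.16 to 0.55). WT1, a transcription factor of serous ovarian tumours, had a count of 0 in all 4 libraries, which allows up to 0.136 CPM in SKOV3 mock and 0.184 CPM in OVCAR3 mock. ESR1, the oestrogen receptor, had 0.05 and 0.06 CPM. MUC16, the gene of the CA125 antigen, was in the labelled direction at low counts, with 1 count in SKOV3 mock and 45 in OVCAR3 mock (4.26, 3.38 to 11.3), and it was below 5 CPM in both. For these reasons the names below are the labels of libraries.

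Fewer genes differed between the mock libraries than between OVCAR3 mock and its own KO library. Between the mocks 1227 of 11044 measured genes passed 2-fold (11.1%), 792 higher in OVCAR3 (7.17%) and 435 lower (3.94%), and the log2 ratios had an SD of 0.67. Between OVCAR3 mock and OVCAR3 KO 30.9% passed, with an SD of 1.10, and between SKOV3 mock and SKOV3 KO 0.139%, with an SD of 0.22. The Spearman correlation of CPM across 11778 genes was 0.942 between the mock libraries, 0.994 between the SKOV3-labelled libraries and 0.843 between the OVCAR3-labelled ones. Genes of 1 library are not independent replicates, so these correlations describe the libraries.

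**Figure D1:**
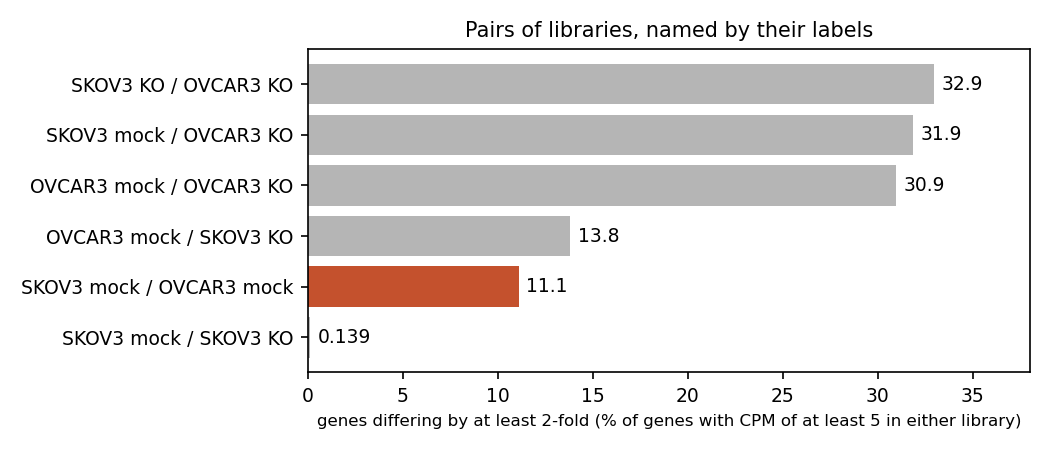
Share of genes that differ by at least 2-fold in each of the 6 pairs of libraries (bars, % of genes with at least 5 CPM in either library of the pair). The mock pair (orange) lies at 11.1%, below all 3 pairs with the OVCAR3 KO library, which lie between 30.9% and 32.9%.

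Almost no gene was present in one mock and absent from the other. Only 3 of the measured genes had at most 3 counts in one mock library. S100P, a calcium-binding protein gene of epithelial tumours on chromosome 4 (6693878 to 6697170), had 1 count in SKOV3 mock and 129 in OVCAR3 mock (5.74, 4.94 to 12.8), and 4 and 134 in the KO libraries of those lines. LOC283352, an uncharacterised transcript, had 216 counts in SKOV3 mock and 0 in OVCAR3 mock, at least 53.2-fold lower in OVCAR3 against a floor of 3 counts. Its KO libraries showed the same split, at 172 and 0 counts. DYX1C1-CCPG1, a readthrough locus whose reads can be counted for its component genes, had 181 and 0 counts in the mocks but 93 and 135 in the KO libraries. LOC283352 and DYX1C1-CCPG1 were named after their values were seen. No 5 Mb window was shifted by 2-fold in its median, over the 442 windows with at least 8 measured protein-coding genes. The median ratio of a window ran from -0.65 to 0.80, while most windows lay between -0.44 and 0.41. The most extreme windows thus lay outside the range of most others. A limit of 2-fold does not pick up smaller shifts of a stretch. A median over 5 Mb does not show a change of a few genes, and windows with fewer than 8 such genes were left out. Copy number was not tested. The medians of whole chromosomes, Y left out, ran from -0.16 to 0.20.

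**Figure D2:**
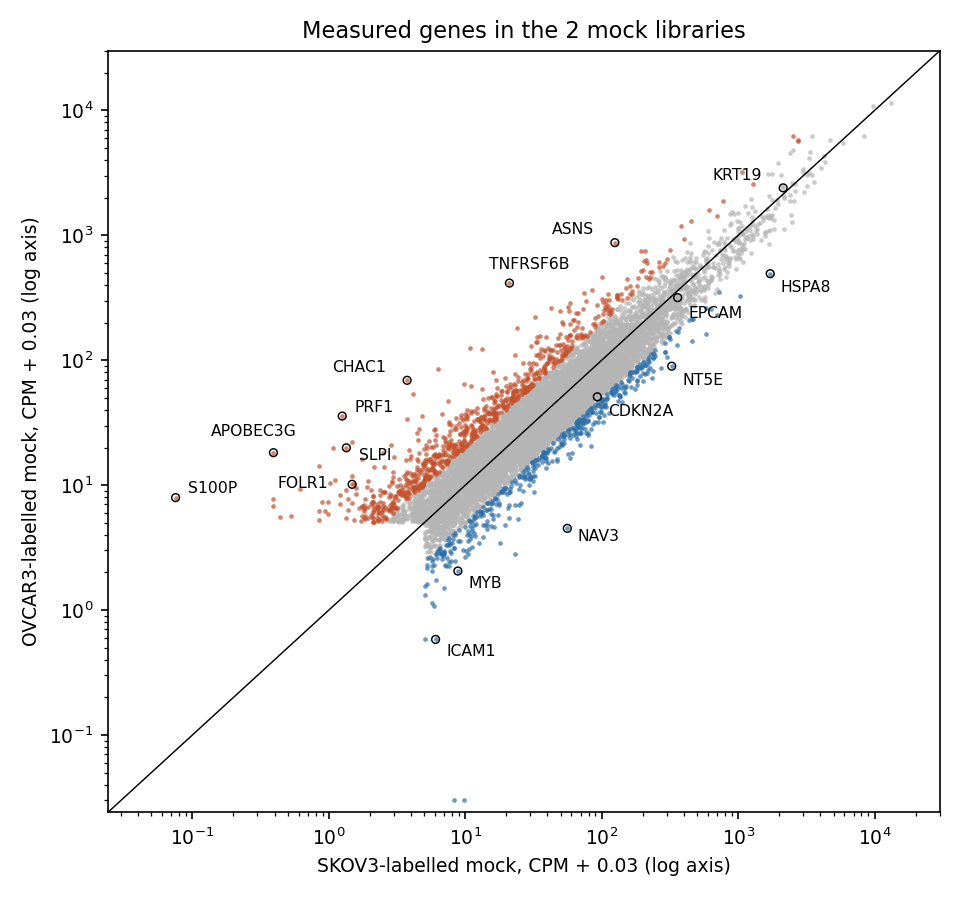
CPM of the measured genes in SKOV3 mock (x) and OVCAR3 mock (y), both on log axes after adding 0.03. Points are genes, orange for those at least 2-fold higher in OVCAR3 mock, blue for those at least 2-fold lower, grey for the rest, and the line marks equal levels. EPCAM and KRT19 lie near the line, S100P and APOBEC3G far above it and NAV3 and ICAM1 far below.

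The lineage programme was largely shared. EPCAM, the epithelial adhesion molecule, had 360 CPM in SKOV3 mock and 317 CPM in OVCAR3 mock, and KRT19, a keratin of simple epithelia, had 2135 and 2397 CPM. None of 8 measured keratins passed 2-fold, and their ratios ran from -0.46 for KRT10 to 0.67 for KRT18. VIM, the mesenchymal filament gene, was at 1.99 CPM in SKOV3 mock and 1.10 CPM in OVCAR3 mock. CDH2, N-cadherin, had 4 counts in each. Epithelial junction and identity genes were higher in OVCAR3 mock for 9 of 38 measured members (23.7%) and lower for 0. The shares over all measured genes were 7.17% and 3.94%. The list had a median ratio of 0.46 (0.28 with the GC trend removed), beside -0.02 over all measured genes. TJP3, a tight junction scaffold, had 353 counts in SKOV3 mock and 1322 counts in OVCAR3 mock (2.33, 2.17 to 2.52). JUP, plakoglobin, had 194 and 515 CPM, and CDH1, E-cadherin, 54.2 and 116 CPM. Between OVCAR3 KO and SKOV3 KO, where 29.8% of all measured genes passed 2-fold (7.63% higher and 22.2% lower), the list had 1 member higher and 13 lower.

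Mesenchymal genes differed in both directions. Of 15 measured members 5 were higher in OVCAR3 mock (33.3%) and 3 lower (20%), beside 7.17% and 3.94% of all measured genes. Among the higher members were FN1, COL6A1, COL6A2 and the calcium-binding S100A4. FN1, fibronectin, had 9.61 CPM in SKOV3 mock and 33.0 CPM in OVCAR3 mock (1.77, 1.55 to 2.02), and COL6A1, a collagen VI chain, had 40.6 and 125 CPM (1.62, 1.51 to 1.74). The 3 lower members were SNAI2, ZEB1 and NT5E. SNAI2, the repressor Slug, had 7.80 and 2.45 CPM (-1.63, -2.20 to -1.16), and ZEB1, a repressor of E-cadherin named after its value was seen, 6.57 and 2.88 CPM (-1.16, -1.70 to -0.71). NT5E, the ectonucleotidase CD73 that makes extracellular adenosine, had 326 and 89.6 CPM (-1.86, -1.94 to -1.78). Between OVCAR3 KO and SKOV3 KO the ratios were -6.01 for SNAI2, -3.13 for NT5E, -0.83 for ZEB1, 2.27 for S100A4, 1.07 for COL6A1, 0.15 for COL6A2 and 0.03 for FN1. Of the 5 higher and 3 lower members, 2 and 2 thus passed in the same direction there. Of all measured genes 7.63% were higher and 22.2% lower in that pair. With the trend removed, 3 of the 5 higher members stayed past 2-fold.

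Of 31 ovarian cancer and Mullerian markers 14 were measured, of which 5 were higher in OVCAR3 mock (35.7%), 9 were within 2-fold and 0 were lower. The shares over all measured genes were 7.17% higher and 3.94% lower. The list median was 0.87, and 0.65 with the trend removed. Another 12 members had at most 3 counts in each mock, among them SOX17, WFDC2 and PGR at 0 in both. PAX8, the Mullerian lineage factor, had 4.85 CPM in SKOV3 mock and 8.90 CPM in OVCAR3 mock (0.86, 0.50 to 1.25). SLPI, a secreted protease inhibitor, had 1.31 and 19.9 CPM (3.82, 3.37 to 4.52), and LCN2, the iron-carrier binding protein lipocalin 2, 0.59 and 9.20 CPM (3.75, 3.15 to 4.91). FOLR1, folate receptor alpha, had 1.45 and 10.1 CPM (2.72, 2.25 to 3.40). The peptidase genes KLK10, at 2.59, and KLK6, at 1.60, were the other members past 2-fold. SLPI, LCN2, FOLR1 and KLK10 were past 2-fold in the KO pair too, at 2.45, 1.87, 2.62 and 1.32, whereas KLK6 had -0.79.

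Most markers of other tissues were not measured in either mock. Over all measured genes 7.17% were higher and 3.94% lower in OVCAR3 mock. The lists here had at most 6 measured members each, too few to compare with those shares. Of 23 hepatocyte genes 0 were measured, and of 22 intestinal genes 1, the homeobox gene CDX2, with 15.6 CPM in SKOV3 mock and 12.5 CPM in OVCAR3 mock. Of 24 leukocyte markers 2 were measured, the lysosomal CD68, which was lower in OVCAR3 mock (-1.23), and the actin regulator CORO1A, which was higher (1.80), while PTPRC, which encodes CD45, had 0 counts in both. Of 15 endothelial markers 2 were measured, EGFL7 (1.03) and ESAM (-0.92), with PECAM1 at 0 and 3 counts and CDH5 at 2 and 0. Of 14 fibroblast markers 2 were measured, COL1A1 and FBLN1, with COL3A1 at 0 in both. The summed level of the list was 27.7 CPM in SKOV3 mock and 55.3 CPM in OVCAR3 mock for fibroblast markers, 47.8 and 35.5 CPM for leukocyte markers and 52.95 and 89.1 CPM for endothelial markers, and the part of other cells in the results was not tested. Mesothelial and germ cell lists had 1 measured member each, MSLN and PRDM1. Of 16 lung and airway genes 2 were measured, ABCA3 (0.44) and LAMP3 (2.10), and of 19 renal tubule genes 2, PAX2 and PAX8. Of 5 measured breast luminal markers 1 was lower, CA12, with GATA3 at 4.81 and 5.03 CPM. Of 27 cornified envelope genes 2 were measured, and SPRR2D had 0.82 and 14.1 CPM (3.95, 3.42 to 4.89). Of 28 neural genes 6 were measured and 2 were higher in OVCAR3 mock, the synaptic vesicle sensor SYT1, at 58.5 and 194 CPM, and STMN3, at 21.7 and 61.0 CPM. Cancer testis antigens were alike, with 2 of 31 measured: MAGEA3 had 74.1 CPM in SKOV3 mock and 59.9 CPM in OVCAR3 mock, and MAGEB2 112 and 130 CPM.

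The measured HOX genes differed by less than 2-fold. Across the 4 HOX clusters, 13 members were measured and none passed 2-fold, beside 11.1% of all measured genes. For so few members a count of 0 is near that share. In the KO pair all 4 HOXA genes and HOXC9 were at least 2-fold lower in OVCAR3. Of the 7 measured HOXB genes 1 was higher and 3 lower there. The shares over all measured genes in that pair were 7.63% higher and 22.2% lower. The 4 measured HOXA genes all had ratios below 0, from -0.99 (-1.31 to -0.70) for HOXA11 to -0.33 for HOXA7. HOXB genes ran from -0.64 for HOXB7 to 0.97 (0.81 to 1.13) for HOXB9. HOXB13, the most posterior gene of its cluster, had 9.07 and 10.6 CPM, HOXC9 7.89 and 5.46 CPM and HOXD8 10.7 and 13.1 CPM.

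Among 90 measured lineage transcription factors of 181 listed, 20 were higher (22.2%) and 5 lower (5.56%) in OVCAR3 mock (median 0.39, trend removed 0.18). The shares over all measured genes were 7.17% and 3.94%. KLF2, a zinc finger factor induced by flow and by stress kinases, had 42.4 CPM in SKOV3 mock and 262 CPM in OVCAR3 mock (2.62, 2.53 to 2.73), but 43.2 and 30.5 CPM in the KO libraries. ID1, an inhibitor of basic helix-loop-helix factors, had 100 and 465 CPM (2.21, 2.14 to 2.28), and EHF, an epithelial ETS factor, 77.2 and 298 CPM (1.95, 1.87 to 2.03). MEIS3, a homeobox factor, had 9.29 and 36.3 CPM. MYB, a regulator of progenitor cells, was on the other side with 8.80 and 2.02 CPM (-2.06, -2.70 to -1.58). ID1, EHF and MEIS3 were at least 2-fold higher in the KO pair too, at 1.87, 2.58 and 1.28, and MYB was lower there at -1.19. Of the 20 higher and 5 lower factors, 6 and 4 passed in the same direction there, beside 7.63% and 22.2% of all measured genes. Of 23 measured nuclear receptors 3 were higher (13.0%) and 0 lower. PPARA, a regulator of fatty acid oxidation, had 6.89 and 24.3 CPM (1.80, 1.54 to 2.10), NR2F1 18.5 and 44.8 CPM (1.27, 1.10 to 1.46), and NR1D1, a repressor of the circadian clock, 261 and 553 CPM (1.08, 1.03 to 1.13).

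Receptor genes were mostly within 2-fold, as were measured genes as a whole, of which 7.17% were higher and 3.94% lower. A few differences were large. Of 30 measured receptor tyrosine kinases 5 were higher (16.7%) and 0 lower in OVCAR3 mock (median 0.31, trend removed 0.09). With the GC and length trend removed, 1 of the 5 stayed past 2-fold, INSR at 1.13. INSR, the insulin receptor, had 28.5 CPM in SKOV3 mock and 70.7 CPM in OVCAR3 mock (1.31, 1.17 to 1.46), LMTK3 14.3 and 39.1 CPM, MST1R, the receptor RON, 24.3 and 51.9 CPM, and RET 8.89 and 18.8 CPM. EPHA2, an ephrin receptor, had 333 and 665 CPM and a ratio just inside the limit. In the KO pair 1 of the 5 higher kinases passed in the same direction, MST1R at 1.15, beside 7.63% of all measured genes. INSR had 0.03 there and RET 0.10. Of 39 measured cytokine and TNF receptors 5 were higher (12.8%) and 1 lower (2.56%). TNFRSF6B, a soluble decoy receptor for FAS ligand on chromosome 20 (63696652 to 63698684), had 21.0 CPM in SKOV3 mock and 414 CPM in OVCAR3 mock (4.29, 4.16 to 4.44), and 16.2 and 214 CPM in the KO libraries. Both OVCAR3-labelled libraries were thus above both SKOV3-labelled ones. FAS itself, the death receptor, went the other way, with 24.8 and 11.7 CPM (-1.08, -1.33 to -0.85), -0.76 with the trend removed and -1.11 in the KO pair. IL20RB, a subunit of interleukin-20 family receptors, had 1.45 and 22.1 CPM (3.84, 3.41 to 4.50). Of the 5 higher and 1 lower cytokine and TNF receptors, 3 and 1 passed in the same direction in the KO pair.

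Other receptor classes gave like counts, again beside 7.17% higher and 3.94% lower of all measured genes. Of 36 measured receptors for TGF-beta, BMP, WNT, NOTCH, hedgehog and guidance cues, 6 were higher (16.7%) and 1 lower (2.78%). With the trend removed 2 of the 6 stayed past 2-fold. UNC5B, a netrin receptor, had 37.3 CPM in SKOV3 mock and 107 CPM in OVCAR3 mock (1.52, 1.40 to 1.64), and NRP1, a co-receptor for VEGF and semaphorins, 7.03 and 2.27 CPM (-1.59, -2.19 to -1.10). Of 38 measured G protein-coupled receptors 7 were higher (18.4%) and 4 lower (10.5%). ADGRG1, an adhesion receptor, had 35.5 and 104 CPM (1.55, 1.43 to 1.68) and NTSR1, the neurotensin receptor, 106 and 267 CPM (1.33, 1.26 to 1.41). ADORA2B, an adenosine receptor, had 90.8 and 37.5 CPM (-1.27, -1.41 to -1.14). Of 10 measured integrins 2 were higher (20%) and 0 lower. The higher ones were ITGB4, the partner of ITGA6 in hemidesmosomes, at 209 and 748 CPM (1.84, 1.79 to 1.89), and the laminin receptor subunit ITGA7, at 3.72 and 9.88 CPM. In the KO pair 0 of these 2 integrins passed, with ITGB4 at -0.30. Of the 6 higher signalling and guidance receptors 1 passed in the same direction there, and UNC5B had -0.77. Of the 7 higher and 4 lower G protein-coupled receptors 2 and 3 did. The shares over all measured genes in that pair were 7.63% higher and 22.2% lower.

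Of 50 measured proteases and inhibitors 16 were higher in OVCAR3 mock (32%) and 0 lower, beside 7.17% and 3.94% of all measured genes (median 0.60, trend removed 0.62). In the KO pair 11 were higher and 9 lower, beside 7.63% and 22.2% of all. TIMP2, an inhibitor of matrix metalloproteinases, had 57.3 CPM in SKOV3 mock and 248 CPM in OVCAR3 mock (2.11, 2.02 to 2.21), and TIMP3 5.85 and 27.4 CPM (2.21, 1.94 to 2.52). SERPINA5, a serine protease inhibitor, had 0.41 and 5.52 CPM, and the membrane protease TMPRSS4 0.50 and 5.58 CPM. SLPI and KLK10, described above, are in this list too. In the KO pair SERPINA5, TMPRSS4, SLPI and KLK10 were again past 2-fold, whereas TIMP2 had -0.30 and TIMP3 0.09.

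Of 46 measured matrix genes 13 were higher (28.3%) and 2 lower (4.35%), beside 7.17% and 3.94% of all measured genes. Their median was 0.56 (trend removed 0.25), and with the trend removed 6 of the 13 stayed past 2-fold. HSPG2, perlecan, had 30.1 CPM in SKOV3 mock and 131 CPM in OVCAR3 mock (2.12, 1.99 to 2.25), and FBLN1, fibulin 1, 9.20 and 34.4 CPM (1.89, 1.67 to 2.14). In the KO pair 3 of the 13 higher and 1 of the 2 lower matrix genes passed in the same direction. HSPG2 had 1.02 there and FBLN1 -0.63. The shares over all measured genes in that pair were 7.63% higher and 22.2% lower. Of 48 measured growth factors 11 were higher (22.9%) and 4 lower (8.33%), and with the trend removed 7 of the 11 stayed past 2-fold. IGF2 had 12.2 and 41.5 CPM (1.76, 1.57 to 1.98). GDF15, a secreted stress factor, had 613 and 1582 CPM (1.37, 1.34 to 1.40). In the KO pair IGF2 had -0.26 and GDF15 -3.21. Of the 11 higher and 4 lower growth factors, 1 and 3 passed in the same direction there. ADM, the vasodilator adrenomedullin, was lower in OVCAR3 mock with 60.9 and 18.0 CPM (-1.75, -1.95 to -1.58), as was NRG4, a ligand of ERBB4, with 10.1 and 2.95 CPM (-1.74, -2.25 to -1.32). Few cytokines were measured, 7 of 65, of which IL18, at 12.9 and 35.2 CPM, and TNFSF4, at 27.4 and 55.6 CPM, were higher. DKK1, a secreted inhibitor of WNT, had 187 and 300.0 CPM, and among 8 measured WNT ligands and inhibitors the Dickkopf receptor gene KREMEN1 alone passed, at 1.30. Of 19 measured surface antigens and mucins 5 were higher (26.3%) and 1 lower (5.26%). L1CAM, an adhesion molecule, had 13.6 and 41.7 CPM (1.60, 1.41 to 1.81), and CD274, the checkpoint ligand PD-L1, 12.7 and 5.64 CPM (-1.15, -1.53 to -0.82). In the KO pair L1CAM had -0.25 and CD274 -1.60. Of the 5 higher and 1 lower members of this list, 1 and 1 passed in the same direction there.

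**Figure D3:**
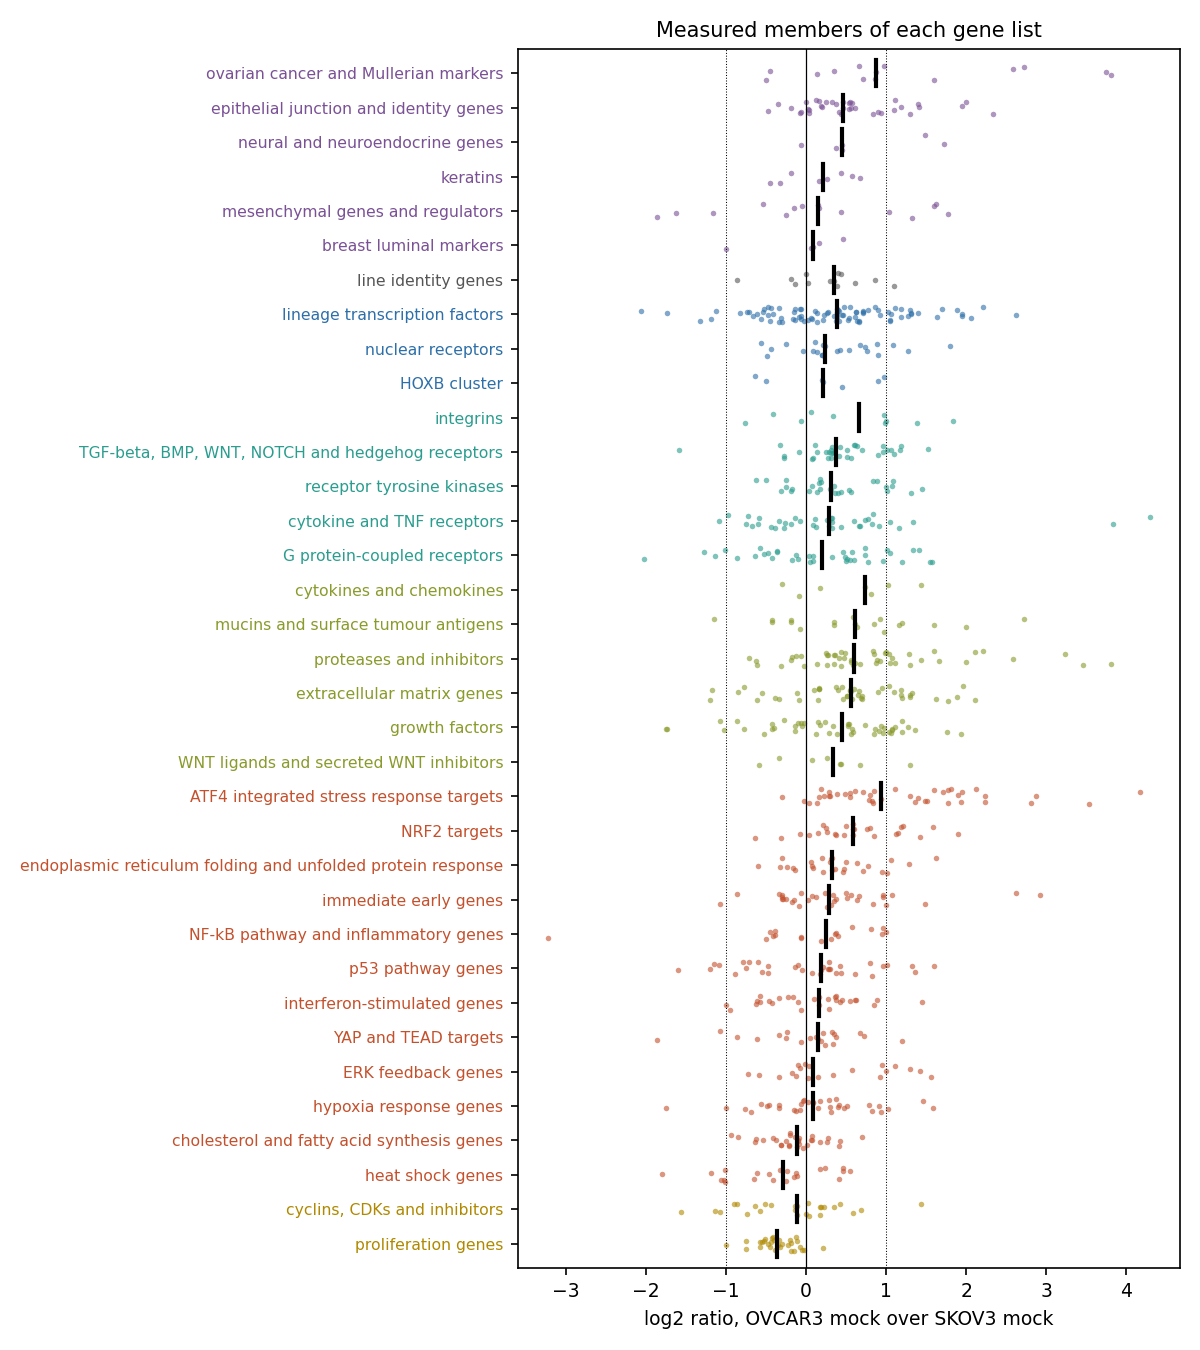
Log2 ratio of OVCAR3 mock over SKOV3 mock (x) for each measured member (point) of each list with at least 5 measured members. Black bars are list medians, dotted lines mark 2-fold, and label colours mark the kind of list. The ATF4 list has a median of 0.94 and the proliferation list -0.37.

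Among the stress programmes, ATF4 targets had the largest number of members past 2-fold. Of 43 measured members 21 were higher in OVCAR3 mock and 0 lower, beside 7.17% and 3.94% of all measured genes. The median was 0.94, and 1.05 with the GC trend removed over the 35 members with a value. ATF4 itself, which is controlled mainly by translation, had 916 CPM in SKOV3 mock and 938 CPM in OVCAR3 mock (0.03, 0.00 to 0.06). CHAC1, which degrades glutathione, had 3.72 and 69.0 CPM (4.18, 3.89 to 4.56). PCK2, the mitochondrial phosphoenolpyruvate carboxykinase, had 10.8 and 126 CPM (3.53, 3.35 to 3.75), and ASNS, asparagine synthetase, 125 and 873 CPM (2.81, 2.75 to 2.87). JDP2, a transcriptional partner of ATF proteins, had 4.81 and 35.9 CPM, and TRIB3, a feedback pseudokinase, 56.1 and 266 CPM. DDIT4, an inhibitor of mTORC1, had 73.5 and 346 CPM.

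Some of the enzymes and transporters past 2-fold were named after their values were seen. PSAT1 and PHGDH of serine synthesis had 84.2 and 72.9 CPM in SKOV3 mock against 368 and 257 CPM in OVCAR3 mock. SLC7A5, the large neutral amino acid transporter, had 453 and 1289 CPM, and AARS, the alanyl-tRNA synthetase, 193 and 746 CPM. SLC7A11, the cystine transporter, had 52.1 and 195 CPM (1.90, 1.81 to 2.00). DDIT3, the factor CHOP, had 49.4 and 161 CPM. Members within 2-fold included PPP1R15A, CDKN1A and ATF3, and ATF3 was on the other side with 137 and 111 CPM. In the KO libraries 6 of 43 members were higher and 14 lower in OVCAR3, beside 7.63% and 22.2% of all measured genes, and the median was -0.23, beside -0.29 over all. All 6 were also among the 21 members higher between the mocks. ASNS stayed higher there (2.06), as did SLC7A11 (1.72), JDP2 (1.61) and CHAC1 (1.44), while SLC7A5 had -1.69 and AARS -0.87.

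**Figure D4:**
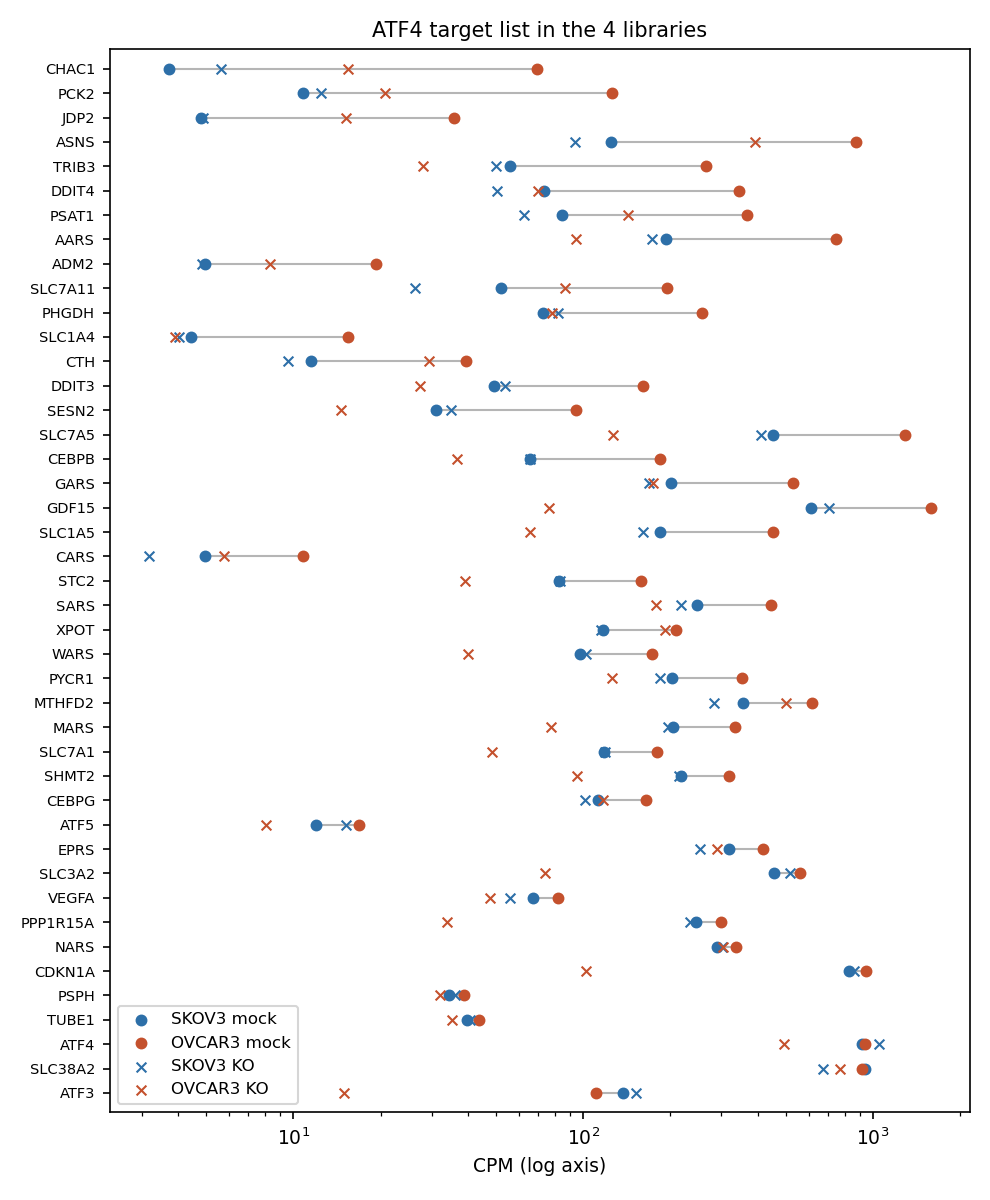
CPM (log axis) of the 43 measured members of the ATF4 list in SKOV3 mock (blue circles), OVCAR3 mock (orange circles), SKOV3 KO (blue crosses) and OVCAR3 KO (orange crosses), ordered by the ratio between the mocks, which the grey lines join. For CHAC1 the mock values are 3.72 and 69.0 CPM, and for ATF4 itself 916 and 938 CPM.

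ATF4 binds DNA as a dimer with C/EBP factors, at sites that join half-sites of both. The letters TGATGNAAN were searched on both strands of the 250 bases before the annotated start of each gene, because so many ATF4-list members moved together. They occur in 3 of 20 promoters of list members at least 2-fold higher in OVCAR3 mock (15%), in 1 of 18 promoters of the other measured members (5.56%) and in 867 of all 27303 promoters (3.18%). Among the measured genes of the whole comparison the share is 1.24%. The sites are shown with 16 bases on each side, from RefSeq on GRCh38.p14, 5′ to 3′ in the direction of the gene, with the match in capitals. The match of CHAC1 and AARS is on the opposite strand. CHAC1 lies at chr15:40953245-40953285 on the plus strand, ASNS at chr7:97872452-97872492 on the minus strand, AARS at chr16:70289670-70289710 on the minus strand and ATF3, which was not higher, at chr1:212565200-212565240 on the plus strand.
CHAC1: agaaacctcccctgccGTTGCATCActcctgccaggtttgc
ASNS: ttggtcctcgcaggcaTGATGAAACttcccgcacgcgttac
AARS: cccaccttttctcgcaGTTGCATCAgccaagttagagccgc
ATF3: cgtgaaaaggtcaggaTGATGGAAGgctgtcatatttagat
CHAC1 and AARS hold the same 9 letters, and ASNS and ATF3 differ from them at the free positions. A match is a description of the letters, and no match in these windows says nothing of sites elsewhere. The list was made of ATF4 targets, so a higher share of these letters was likely whatever the ratios. Whether ATF4 acts at these sites here was not tested.

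Other stress programmes showed smaller shifts. NRF2 targets were higher in OVCAR3 mock for 7 of 26 measured members (26.9%) and lower for 0 (median 0.58, trend removed 0.60). The shares over all measured genes were 7.17% and 3.94%. With the trend removed, 3 of the 6 higher NRF2 targets with a value stayed past 2-fold. FTH1, the ferritin heavy chain, had 1073 CPM in SKOV3 mock and 3219 CPM in OVCAR3 mock (1.59, 1.56 to 1.61), and NQO1, a quinone reductase, 262 and 606 CPM (1.21, 1.16 to 1.26). NFE2L2, which encodes NRF2, had 118 and 179 CPM (0.60, 0.52 to 0.68), while the target GCLM was near equal. NQO1 was again higher in the KO pair (1.11), and FTH1 was not (-0.21). Endoplasmic reticulum genes had 4 of 27 members higher (14.8%), of which 2 stayed past 2-fold with the trend removed, and 0 lower. HSPA5, the chaperone BiP, had 767 and 1873 CPM (1.29, 1.26 to 1.31) and HERPUD1, of the degradation machinery, 38.3 and 118 CPM (1.62, 1.51 to 1.74). XBP1, a regulator of this response, had 111 and 118 CPM.

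Heat shock genes were on the other side. Of 22 measured members 0 were higher and 6 lower in OVCAR3 mock (27.3%), beside 7.17% and 3.94% of all measured genes. The median was -0.29, and -0.37 with the trend removed. HSPA8, the constitutive chaperone HSC70 on chromosome 11 (123057489 to 123062462), had 1717 CPM in SKOV3 mock and 493 CPM in OVCAR3 mock (-1.80, -1.84 to -1.77). Its KO libraries had 1785 and 1548 CPM, so OVCAR3 mock was the low one of the 4. The co-chaperones DNAJA1 (-1.06) and DNAJB4 (-1.19), HSPH1 of the HSP110 family (-1.03), CHORDC1 (-1.02) and the mitochondrial HSPE1 (-1.01) were the other 5. With the GC and length trend removed these 5 fell inside 2-fold, and HSPA8 alone of the 6 stayed past it, at -1.68. HSF1, their regulator, had 187 and 159 CPM. Of these 6, HSPH1 alone was past 2-fold in the KO pair, at -1.06.

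The hypoxia, p53 and inflammatory lists had no common direction. Shares higher and lower were 8.57% and 5.71% for hypoxia, 11.8% and 11.8% for p53, and 0% and 5.56% for NF-kB genes. Interferon-stimulated genes had 3.45% and 0%, and all measured genes 7.17% and 3.94%. Apart from p53, the list shares were thus near or below those of all measured genes. Of 35 measured hypoxia genes 3 were higher, NDRG1 (1.58), SLC2A1, the glucose transporter GLUT1 (1.47) and ALDOC (1.02), and 2 lower, ADM and CA12 (-1.01). HIF1A had 175 CPM in SKOV3 mock and 160 CPM in OVCAR3 mock. Of 34 measured p53 pathway genes 4 were higher, including SESN2 (1.60), which is an ATF4 target too, and FUCA1 (1.33), and 4 lower, including TRIAP1 (-1.60), PMAIP1, the apoptosis gene NOXA (-1.19), and TP53I3 (-1.15). Of 18 measured NF-kB and inflammatory genes 1 passed downward, ICAM1, a leukocyte adhesion molecule, with 6.03 and 0.55 CPM (-3.22, -4.61 to -2.48) and -3.18 in the KO pair. NFKB2 had 137 and 274 CPM. Of 29 interferon-stimulated genes 1 passed upward, IFI6 (1.45).

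Immediate early genes had 4 of 34 members higher (11.8%) and 1 lower (2.94%), near the 7.17% and 3.94% of all measured genes. FOS had 23.8 CPM in SKOV3 mock and 182 CPM in OVCAR3 mock (2.93, 2.80 to 3.07) and CYR61, a matricellular target of YAP, 53.3 and 25.3 CPM (-1.07, -1.24 to -0.91). ERK feedback genes had 4 of 20 members higher (20%) and 0 lower, but a median of 0.09 (trend removed 0.06), with 12 members above 0. The 4 higher ones were DUSP6, a phosphatase of ERK, at 152 and 451 CPM (1.57, 1.51 to 1.63), SPRY4 (1.42), ETV4 (1.30) and ETV5 (1.11). In the KO pair DUSP6 had 1.30, SPRY4 1.54, ETV4 0.18 and ETV5 -1.18. The list had 2 members higher and 10 lower there, beside 7.63% and 22.2% of all measured genes. Of 21 measured genes of YAP and TEAD 1 was higher (4.76%), the coagulation initiator F3 (1.20), and 2 lower (9.52%), NT5E and CYR61. None of 31 lipid synthesis genes passed 2-fold, from -0.93 for IDI1 to 0.70 for TM7SF2.

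Proliferation genes were a little lower in OVCAR3 mock. Of 30 measured members 29 had a ratio below 0 and none passed 2-fold, beside 11.1% of all measured genes. The median was -0.37 (trend removed -0.27), beside -0.02 (trend removed -0.01) over all measured genes. The quartiles over all measured genes were -0.40 and 0.39, on both sides of 0. MCM4, a subunit of the replicative helicase, had 207 and 104 CPM, the largest difference of the list and just inside the limit. Among cyclins, kinases and inhibitors 1 of 26 was higher (3.85%) and 3 were lower (11.5%), beside 7.17% and 3.94% of all measured genes. The higher one was the phosphatase CDC25B (1.43). The 3 lower ones were CCNE2, cyclin E2, with 26.6 and 8.90 CPM (-1.57, -1.85 to -1.31), CCNA2 (-1.14) and CDC25A (-1.07). Both KO libraries had CCNE2 at higher levels, 37.1 CPM in SKOV3 and 41.8 CPM in OVCAR3.

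Of the 15 genes with the highest ratios, S100P, TNFRSF6B, CHAC1, SPRR2D, IL20RB, SLPI, LCN2 and PCK2 are described above. The others included APOBEC3G, a cytidine deaminase that restricts retroelements (chromosome 22, 39077005 to 39087743), with 0.36 CPM in SKOV3 mock and 18.2 CPM in OVCAR3 mock (5.29, 4.65 to 6.87), and PRF1, the pore-forming perforin, with 1.22 and 35.7 CPM (4.75, 4.31 to 5.48). In the KO libraries APOBEC3G had 0.07 CPM in SKOV3 and 64.0 CPM in OVCAR3, and PRF1 0.79 and 19.8 CPM. CLSTN2, a calsyntenin (4.12), DES, desmin (4.07), SPX, a peptide hormone (3.88), TGM2, a transglutaminase (3.74), and DLC1, a GTPase-activating protein (3.69), were the rest. Of the 15 highest genes 13 were past 2-fold in the same direction between the KO libraries, beside 7.63% of all measured genes. PCK2 (0.72) and SPRR2D (-2.85) were not.

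Lower in OVCAR3 mock was NAV3, a microtubule-binding gene on chromosome 12 (77571862 to 78213010), with 55.9 CPM in SKOV3 mock and 4.48 CPM in OVCAR3 mock (-3.61, -4.003 to -3.30), and 44.2 and 0.51 CPM in the KO libraries. ZNF804A had 5.03 and 0.55 CPM, KBTBD8, a substrate adaptor of cullin 3, 17.9 and 3.44 CPM, and AOX1, aldehyde oxidase, 5.71 and 1.10 CPM. RPP30, a subunit of RNase P, had 83.7 and 20.4 CPM (-2.03, -2.21 to -1.87), and MRPL46, a mitochondrial ribosomal protein, 58.9 and 16.4 CPM (-1.83, -2.04 to -1.65). Of the 15 lowest genes 12 were past 2-fold in the same direction between the KO libraries, beside 22.2% of all measured genes. The 3 others were OR52D1, at 1.73, GOLGA8A, at 0.93, and CENPK, at -0.11. GOLGA8A shares reads with near-identical copies and is uncertain.

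Over all measured genes, 272 of the 792 genes higher in OVCAR3 mock were also at least 2-fold higher in OVCAR3 KO than in SKOV3 KO (34.3%), beside 7.63% of all measured genes. Of the 435 lower genes 235 were at least 2-fold lower there (54.0%), beside 22.2% of all. In the opposite direction past 2-fold were 52 and 35 genes. The mock pair and the KO pair share no library, but the knockout, the culture and the composition of the OVCAR3 KO library cannot be told apart in the second.

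**Figure D5:**
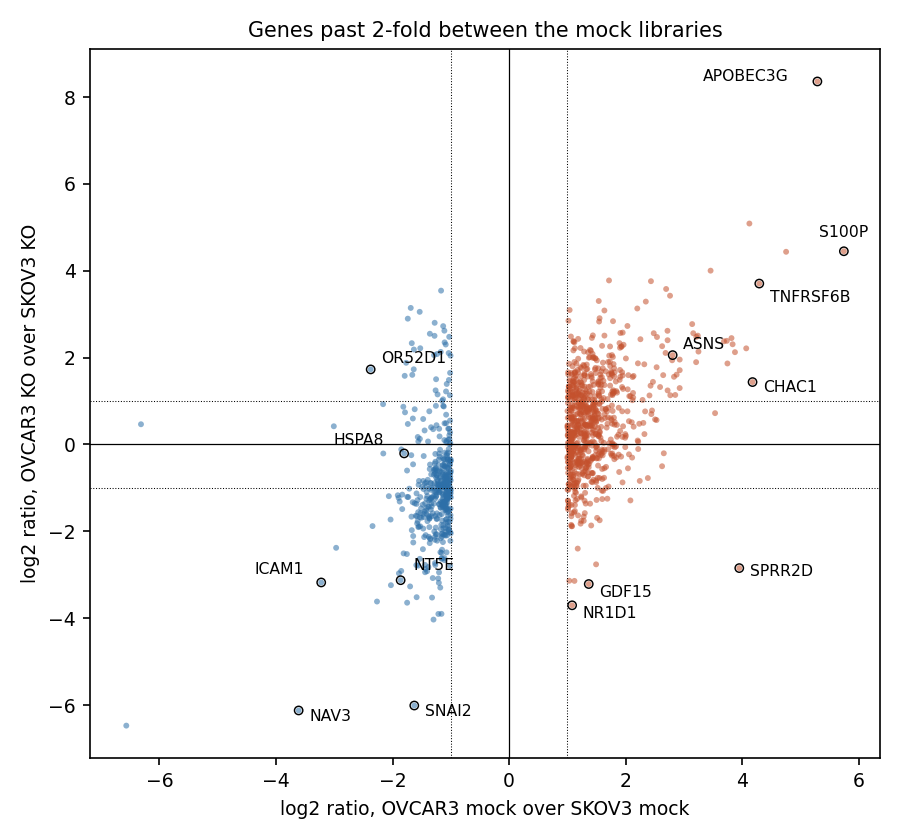
Log2 ratio of OVCAR3 over SKOV3 in the mock libraries (x) and in the KO libraries (y) for genes past 2-fold between the mocks (points, orange higher and blue lower in OVCAR3 mock), with dotted lines at 2-fold. The upper right corner beyond the lines holds 272 genes and the lower left 235, while GDF15 and NR1D1 lie at the lower right.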

How the data were processed

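The 4 deposited tables hold raw read counts per gene symbol, whole numbers that the authors did not normalise, from 1 library per group. TopHat and the build GRCh38 are named per the submitters' processing notes. No counting tool, annotation or strand setting is named in the sources used here, so reads of antisense, overlapping or near-identical genes may be shared. Groups came from the sample titles. Repeated symbols (2687, in 8458 of 58173 rows, at most 0.465% of a library) were summed, and counts were divided by library totals between 15145483 and 22057693. A count of 0 allows up to 3 counts.

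With 1 library per group there was no test. Intervals of count ratios are exact (Clopper-Pearson, 95%, without the prior count). Of 1700 list symbols 1699 matched, 17 by an older name. Gene types, coordinates and promoters are from RefSeq GRCh38.p14 (94.7% of measured symbols matched), GC content and length from GENCODE transcripts. Of the measured rows 10 that relate to sex chromosomes are not listed or plotted. Some named genes are not reported here. The just-included genes had 5.03 CPM (CKMT1A, CNOT3 and COL17A1), the just-excluded 4.99 CPM (BCL2, BRCAT54 and FAN1).

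The comparison and the 49 gene lists were chosen with earlier results of these data known. Named genes were the 15 largest ratios per direction among protein-coding genes with at least 100 summed counts (without uncharacterised, antisense, readthrough, small RNA and histone genes), up to 6 members per list by absolute ratio, all line identity genes and 6 regulators. Named after their values were seen were SOX17, WFDC2, PGR, PTPRC, PECAM1, CDH5, COL3A1, ZEB1, GCLM, PPP1R15A, CDKN1A, ATF3, DDIT3, PSAT1, PHGDH, SLC7A5 and AARS. Alternatives used edgeR 4.0.16 (TMM) and DESeq2 1.42.0 size factors in R 4.3.3, other filters, prior counts and folds. The ratio and interval code was tested on simulated counts.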

Additional observations from a re-analysis of the deposited data

Results flagged for a closer look

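Among the named genes, 11 reported here were past 2-fold between the mock libraries and past 2-fold in the opposite direction between the KO libraries, and each direction rests on 1 library per group, so the difference was not tested. Higher in OVCAR3 mock and lower in OVCAR3 KO, each against the SKOV3-labelled library, were GDF15 (1.37 and -3.21), NR1D1 (1.08 and -3.70), SPRR2D (3.95 and -2.85), JUP (1.41 and -1.86) and ADGRG1 (1.55 and -1.74). The same order held for ARC (1.07 and -1.39), PRDM1 (1.01 and -1.30), SESN2 (1.60 and -1.26), CDCP1 (1.17 and -1.25) and ETV5 (1.11 and -1.18). OR52D1, an olfactory receptor row, had -2.38 and 1.73. GDF15 had 613 CPM in SKOV3 mock, 1582 in OVCAR3 mock, 707 in SKOV3 KO and 76.1 in OVCAR3 KO.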

How the results depend on the processing

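With TMM or DESeq2 size factors, mitochondrial rows left out of the totals, prior counts of 0.5 and 5, or protein-coding genes only, the counts stayed within 1.5 times their values. No named gene past 2-fold changed sign under the alternatives run. The 35 list medians that were followed all lay within 2-fold as reported, the largest at 0.94 for the ATF4 list. Genes higher, genes lower and genes past the limit alike in the KO pair (792, 435 and 507) were 1250, 806 and 857 with CPM of at least 1, 475, 294 and 305 with at least 20, and 2490, 2261 and 1506 with no filter. With a limit of 1.5-fold they were 1858, 1682 and 1724, and at 4-fold 88, 14 and 37. Added after seeing the data, the removal of the GC and length trend gave 604 higher and 333 lower among 10116 protein-coding genes, and the SKOV3 KO library in place of SKOV3 mock gave 852 and 684. The trend removal moved 118 of 236 named ratios and 12 of 35 list medians beyond their counting error, and that library swap 109 of 239 and 10 of 35. Of 141 named genes past 2-fold, 110 stayed past it with the trend removed; those that did not include NR1D1 (0.88), ARC (0.68), COL6A2 (0.91), NTSR1 (0.93), CD274 (-0.97), PMAIP1 (-0.76) and CCNA2 (-0.92). The filters tested 13721 genes (at least 1), 8135 (at least 20) and 11044 (as reported). No paired analysis was possible because each group has 1 library and all share the same number.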
